A study of Mus musculus with 6 samples.

Results

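The vacuolar proton pump (V-ATPase) and the factors that assemble it were examined in mouse bone marrow-derived macrophages. Members were chosen by gene name alone: names beginning with Atp6v or Atp6ap, plus Tcirg1, Vma21, Rnasek, Dmxl1, Dmxl2, Wdr7, Ccdc115 and Tmem199, with 2 pseudogene rows left out. This gave 34 of the 55401 genes in the deposited table: 11 genes of the membrane sector V0, 13 of the catalytic sector V1, 9 assembly and accessory genes, and Atp6v1fnb, which matches by name only. No measured value entered the choice, but earlier results of these data were known when the group was drawn up, among them a low Vma21 value, so the counts over the group describe it and serve as support for nothing.

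RNA-seq was available for 6 libraries of macrophages from C57BL/6 mice, 3 labelled wild type (WT) and 3 labelled Mettl3-/- (KO). Bone marrow from femur and tibia was grown in DMEM with 10% FBS, penicillin, streptomycin and M-CSF at 40 ng/mL for 7 days, in both groups. The labels put this culture ahead of a treatment that they do not name, and give no age, no Cre driver and no allele. Nothing in them says whether the replicates are separate mice or separate dishes. The p-values therefore cover only the spread between these libraries, which may be technical.

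The pump splits ATP in its cytosolic V1 sector and uses the energy to drive protons through its V0 sector into lysosomes, endosomes and phagosomes. V0 is built in the endoplasmic reticulum with the help of dedicated assembly factors, and V1 docks onto it reversibly in the cytosol, helped by the RAVE-like complex of Dmxl1 or Dmxl2 with Wdr7. In macrophages the acid it makes activates lysosomal proteases and serves the killing and digestion of engulfed material. Several subunits exist as paralogs that are used in different tissues, and many lysosomal genes, pump genes included, are known targets of the TFEB, TFE3 and MITF transcription factors, which bind an E-box with the core CACGTG.

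Library totals ran from 67280390 to 77997742 estimated counts, and the 34 genes took 0.501% to 0.511% of them in the WT libraries and 0.459% to 0.474% in those labelled KO. Levels are in FPKM, the count scaled by exon length and by library size, which can be compared between genes. Mettl3 itself stood at 2.59 ± 0.323 FPKM in WT against 2.67 ± 0.233 FPKM in labelled KO (SD, n = 3 each). Its fitted change, as a log2 ratio of labelled KO to WT (log2FC), was 0.02 (adjusted p = 0.93 in edgeR, with Benjamini-Hochberg adjustment here and below). Because Mettl3 was no lower under the KO label, groups are called WT and labelled KO throughout. A gene-level value does not show whether the transcript is intact, so whether Mettl3 was functional in either group was not tested. All 8 macrophage markers checked were expressed, and 3 of them were called higher and 2 lower in labelled KO. Lyz2, which encodes lysozyme, fell from 14189 ± 212 FPKM in WT to 6012 ± 62.5 FPKM in labelled KO (SD, n = 3 each). The other 7 markers together held 2232 to 2319 FPKM in WT and 2367 to 2415 FPKM in labelled KO. The sums for 4 T cell, 4 B cell, 5 dendritic cell and 4 mast cell markers were at most 5.76, 2.14, 0.259 and 0.185 FPKM in any library. Of these, 4 T cell, 4 B cell and 2 dendritic cell markers were tested, with 0 calls. None of the mast cell markers had enough counts to be tested. Neutrophil markers summed to 60.9 to 66.2 FPKM in WT and 51.8 to 62.2 FPKM in labelled KO, with Mpo called higher, Ltf called lower and Ly6g at a count of 0 in WT. Of 4 stromal markers, summing to 1.49 to 1.85 FPKM in WT and 1.54 to 1.75 FPKM in labelled KO, Dcn was called higher. Of 5 monocyte markers, 4 were called higher in labelled KO, and their sum was 177 to 185 FPKM in WT against 239 to 250 FPKM in labelled KO. The part of these marker shifts in the differences below was not tested, and in bulk RNA fewer cells of a type cannot be told apart from less RNA per cell.

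Promoter sequence is shown for the 3 members with an E-box of the TFEB family that lies wholly upstream of a start site and outside annotated exons. RefSeq start sites on GRCm38.p6, the build of the files (mm10), were given for 24 of the 34 genes, 17 of them among the 26 genes with enough counts to be tested. The E-box CACGTG, which reads the same on both strands, was in the window from 250 bases before to 50 bases after a start site in 6 of the 17 tested members: Atp6v0b, Atp6v0d1, Atp6v0e, Atp6v1a, Ccdc115 and Vma21. With both strands searched, all 6 also carried the longer TCACGTG, which contains the first motif. The palindrome TCACGTGA was in 4, namely Atp6v0d1, Atp6v0e, Atp6v1a and Vma21. Of all 27025 genes in the same table, 8.09% held CACGTG, 4.29% TCACGTG and 1.12% TCACGTGA. None of 7 untested members held CACGTG. The lines below run 5′ to 3′ on the gene's strand, leave out bases that lie in annotated exons, and mark the E-box with its flanking T or A in capitals. The Atp6v0b stretch (chr4:117887334-117887579, minus strand) has E-boxes beginning 36 and 18 bases before the start site. The Atp6v1a stretch (chr16:44139306-44139461, minus strand) has one 131 bases before its start site, and the Vma21 stretch (chrX:71816700-71816757, plus strand) one 52 bases before its downstream start site. The stretches of Atp6v1a and Vma21 lie inside the deposited spans of their genes (44085402 to 44139705 and 71815924 to 71839757), so neither is upstream of the whole gene. A further E-box of Vma21 began 242 bases before its upstream start site, and that of Ccdc115 began 41 bases before its start. In Atp6v0d1 and Atp6v0e the E-box lay at the start site, beginning 3 bases before and 4 bases after it.
Atp6v0b: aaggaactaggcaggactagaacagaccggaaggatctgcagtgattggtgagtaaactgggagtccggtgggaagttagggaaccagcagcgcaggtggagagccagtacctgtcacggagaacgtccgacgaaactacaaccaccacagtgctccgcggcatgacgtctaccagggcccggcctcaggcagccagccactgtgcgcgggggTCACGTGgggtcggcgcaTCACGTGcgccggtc
Atp6v1a: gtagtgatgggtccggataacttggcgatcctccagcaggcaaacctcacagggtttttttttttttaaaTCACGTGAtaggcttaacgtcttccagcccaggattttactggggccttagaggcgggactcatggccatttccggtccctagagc
Vma21: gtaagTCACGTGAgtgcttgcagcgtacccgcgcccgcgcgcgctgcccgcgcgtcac
The windows of tested members had a median GC content of 59.0% and a median of 20 CpG pairs, against 52.7% and 7 over all 32851 windows. Those of untested members had medians of 57.3% and 3. CACGTG itself holds a CpG pair, and the part of composition in these motif counts was not tested. A match in these windows is a description of sequence and was not tied to binding or to the expression values.

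For subunits with several paralogs, 1 form made up most of the transcript, and the kidney and testis forms were at a count of 0. Of the 34 genes, 7 had a count of 0 in all 6 libraries: Atp6v0a4, Atp6v1b1, Atp6v1c2, Atp6v1e2, Atp6v1g3, Atp6ap1l and Atp6v1fnb. A count of 0 allows up to 3 counts, or 0.0385 to 0.0446 CPM (counts scaled to library size) by library, for counting error only. That limit takes each count as a separate read. Many low deposited counts are multiples of 4, so a read can stand for several counts and the true limit may be higher. Of the 4 genes for subunit a, which forms the path of the protons through the membrane, Tcirg1 (a3), the form known from osteoclasts and immune cells, held 86.7% ± 0.959 of the summed FPKM in WT. Atp6v0a1 held 6.92% ± 0.212 and Atp6v0a2, the Golgi-associated form, 6.34% ± 1.15 (SD, n = 3 each). For subunit e, Atp6v0e held 99.6% to 100% of FPKM in each library, and Atp6v0e2 had 0 to 27 counts. For subunit G, Atp6v1g1 held 98.9% to 99.5%, and the neuronal form Atp6v1g2 stood at 1.11 ± 0.400 FPKM in WT.

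Levels of the main subunit genes differed on the FPKM scale. In V0 of the WT libraries, Atp6v0c, the proteolipid that forms most of the rotating ring, was highest at 151 ± 5.61 FPKM, followed by Tcirg1 at 117 ± 0.563, Atp6v0d1 at 105 ± 1.93, Atp6v0b at 76.4 ± 1.47 and Atp6v0e at 36.3 ± 0.523 (SD, n = 3 each). In V1, Atp6v1g1 stood at 139 ± 1.74 FPKM, Atp6v1f at 98.2 ± 1.36, Atp6v1a at 98.0 ± 1.42 and Atp6v1b2 at 85.8 ± 0.719. Atp6v1f and Atp6v1a, neighbours in that order, did not differ beyond their spread. Atp6v1e1 (42.1 FPKM), Atp6v1d (31.5), Atp6v1c1 (24.2) and Atp6v1h (7.54) followed. Among the assembly genes, the accessory subunits Atp6ap1 and Atp6ap2 were at 91.5 ± 0.729 and 88.9 ± 1.32 FPKM, while the dedicated assembly factors and the RAVE-like genes lay between 3.07 and 11.7 FPKM. The lengths behind these FPKM values are all annotated exon bases of a gene, so a gene with long exons that are seldom used reads low.

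**Figure D1:**
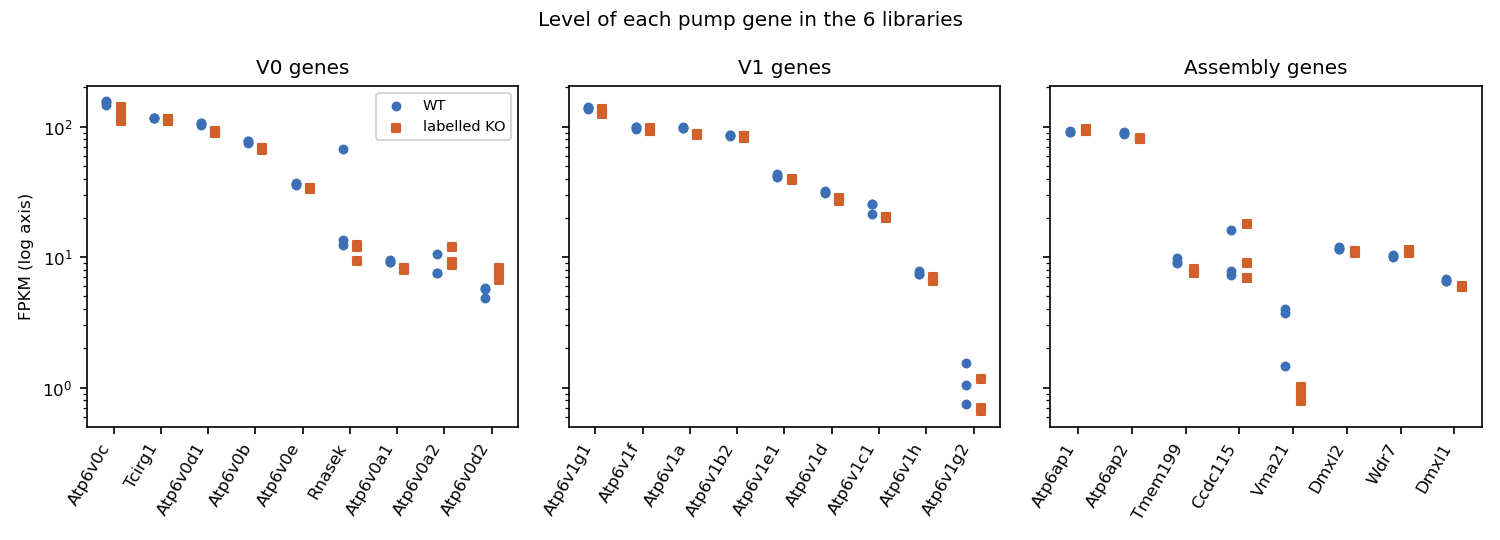
FPKM of the 26 tested members in each library on a log axis, WT as circles and labelled KO as squares, in 3 panels by sector. Atp6v0c and Atp6v1g1 stand highest, and the points of most genes lie close together except those of Rnasek, Ccdc115, Vma21, Atp6v0a2 and Atp6v1g2.

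Every pump transcript that passed the test was lower in the libraries labelled KO, mostly by a small amount. Of 26 tested members, 11 fell, 0 rose and 15 were not called in the fit of all 16256 tested genes (quasi-likelihood test of edgeR, adjusted p under 0.05). Over all tested genes 5.67% were called lower and 7.01% higher, 12.7% in all. Calls were more frequent for abundant genes: at a mean log2 CPM of at least 7, 22.2% of 1543 genes were called lower, and of the 15 members in that range 8 were. Abundant genes were called in both directions: at a mean log2 CPM of 7 to 12, 21.9% of 1527 genes were called lower and 21.0% higher. The log2FC was below 0 for 21 of the 26, with a median of -0.16, beside -0.00495 over all tested genes. In 19 of the 27 members with any counts, every labelled KO library read below every WT library on the FPKM scale, and in 2 every one read above, where 14.6% and 19.1% of all tested genes do so. An exact two-sided permutation test over 3 against 3 libraries cannot give less than 0.1, and those 21 genes reached that value. With 1 library left out, 5 of the 11 calls held in each of the 6 fits: Atp6v0d1, Atp6v0b, Atp6v1a, Atp6v1d and Atp6ap2.

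**Figure D2:**
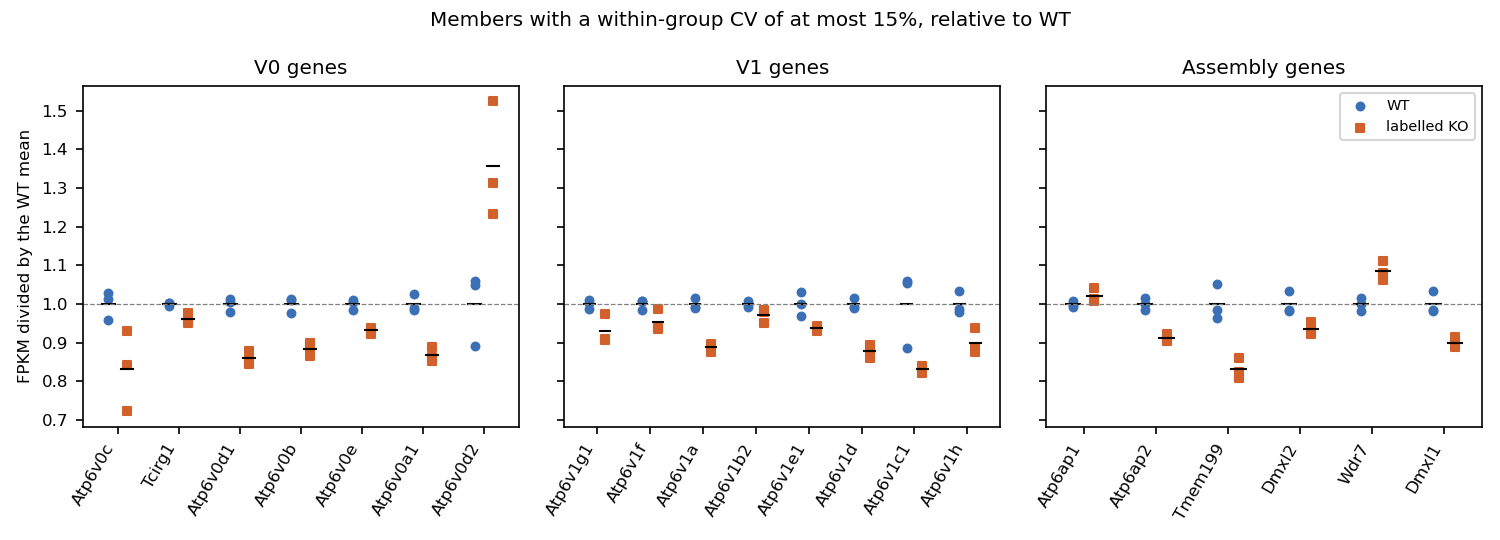
FPKM of each library divided by the gene's WT mean, for the 21 members with a mean of at least 1 FPKM and a coefficient of variation of at most 15% in both groups; short bars are group means. Most squares (labelled KO) lie a little below 1, with the lowest group mean at 0.831 of WT for Tmem199, while those of Atp6v0d2, Wdr7 and Atp6ap1 lie above 1.

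In V0, 5 of 9 tested genes fell in the libraries labelled KO and 0 rose, with a median log2FC of -0.19. Atp6v0d1 encodes subunit d, which links the ring to the central stalk of V1. It read 103, 106 and 106 FPKM in WT against 88.7, 89.7 and 92.4 FPKM in labelled KO, a log2FC of -0.23 (SE 0.028, adjusted p = 0.00375 in edgeR). Its groups did not overlap, and the gap between them was wider than the spread within either. Atp6v0b, the second proteolipid of the ring, went from 74.7, 77.3 and 77.1 FPKM to 66.0, 68.0 and 68.6 FPKM (log2FC -0.19, SE 0.030, adjusted p = 0.00864 in edgeR). Its highest labelled KO library stayed below its lowest WT library.

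Among the subunit a genes, 2 of 3 tested fell, where 5.67% of all tested genes were called lower. Atp6v0a1 read 9.17, 9.57 and 9.23 FPKM in WT against 7.95, 8.04 and 8.30 FPKM in labelled KO (log2FC -0.22, SE 0.038, adjusted p = 0.0134 in edgeR). Tcirg1 fell by 0.07 on the log2 scale, from 117, 117 and 116 FPKM to 111, 114 and 112 FPKM (SE 0.017, adjusted p = 0.0405 in edgeR), without overlap of the groups. Atp6v0a2 was not called and its groups overlapped, at 10.5, 7.58 and 7.61 FPKM in WT against 11.99, 9.13 and 8.67 FPKM in labelled KO (log2FC 0.20, SE 0.17, 95% limits -0.21 and 0.61). Replicate 1 was the highest library of Atp6v0a2 in each group. The call of Atp6v0a1 was lost without WT replicate 2, KO replicate 1 or KO replicate 2 (adjusted p of 0.0533 to 0.0581 in edgeR), and that of Tcirg1 without any 1 of the 6 libraries (0.0525 to 0.110). Tcirg1 was not called with DESeq2 (adjusted p = 0.102), without a filter on low counts in edgeR (adjusted p = 0.0581) or with limma (adjusted p of 0.0884 to 0.124).

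Atp6v0e, which encodes the small membrane subunit e, read 35.7, 36.7 and 36.5 FPKM in WT against 34.1, 34.0 and 33.5 FPKM in labelled KO (log2FC -0.12, SE 0.026, adjusted p = 0.0329 in edgeR), again without overlap. That call too was lost without any 1 of the 6 libraries (adjusted p of 0.0579 to 0.103 in edgeR). Atp6v0c was not called (log2FC -0.28, SE 0.086, adjusted p = 0.0885 in edgeR). It read 156, 145 and 154 FPKM in WT against 128, 141 and 109.5 FPKM in labelled KO, so the groups did not overlap but the labelled KO libraries were spread widely. The Atp6v0c value passed without KO replicate 2 (adjusted p = 0.0357 in edgeR), and also with DESeq2 on all libraries (adjusted p = 0.00984). Reads of Atp6v0c can be shared with its pseudogene row Atp6v0c-ps2, which read 20.4, 43.4 and 6.47 FPKM in WT against 79.8, 8.09 and 17.9 FPKM in labelled KO, with no common pattern by group. With the pseudogene rows added to Atp6v0c, the log2FC was -0.26 (adjusted p = 0.111 in edgeR).

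Subunit d showed opposite signs in its 2 paralogs. Atp6v0d2, a form known from osteoclasts and fusing macrophages, read 5.76, 4.84 and 5.70 FPKM in WT against 7.13, 6.70 and 8.28 FPKM in labelled KO. Every labelled KO library was above every WT library, but the change did not pass (log2FC 0.42, SE 0.11, 95% limits 0.16 and 0.68, adjusted p = 0.0521 in edgeR). It passed with DESeq2 (adjusted p = 0.00489) and with limma on genes with a mean FPKM of at least 1 (adjusted p = 0.0408). It did not pass with limma on all tested genes at pseudocounts of 0.1 and 1 (adjusted p = 0.0537 and 0.0555). In edgeR it failed with a replicate block (0.0575), median-of-ratios factors (0.0529) and no low count filter (0.0756). It also failed without any 1 of the 6 libraries (adjusted p of 0.0663 to 0.130 in edgeR). Atp6v0d2 made up 5.30%, 4.35% and 5.12% of subunit d FPKM in WT against 7.44%, 6.95% and 8.23% in labelled KO, so Atp6v0d1 remained the main form in each library. The difference between the paralogs' changes was not tested. Markers of osteoclasts and giant cells showed 0 calls among 6 tested genes, their summed level was 40.6 to 42.6 FPKM in WT against 43.1 to 46.9 FPKM in labelled KO, and the calcitonin receptor gene Calcr was at 0.

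In V1, 2 of 9 tested genes fell in the libraries labelled KO and 0 rose, and the log2FC of all 9 was below 0, with a median of -0.17. Atp6v1a encodes the subunit that carries the catalytic ATP site. It went from 99.7, 97.3 and 97.2 FPKM in WT to 87.8, 87.6 and 86.0 FPKM in labelled KO, a log2FC of -0.19 (SE 0.018, adjusted p = 0.00153 in edgeR), the smallest adjusted p among the members. Atp6v1d, part of the central rotor, went from 31.3, 31.2 and 32.0 FPKM to 27.1, 28.2 and 27.7 FPKM (log2FC -0.20, SE 0.028, adjusted p = 0.00593 in edgeR). Both genes were without overlap between the groups, and the fitted changes were -12.1% and -13.2%.

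The other V1 genes did not pass the test. Atp6v1b2, the partner of Atp6v1a in the catalytic ring, read 85.9, 85.1 and 86.5 FPKM in WT against 84.5, 84.0 and 81.5 FPKM in labelled KO, with a log2FC of -0.06 (95% limits -0.11 and -0.01, adjusted p = 0.113 in edgeR). Atp6v1c1, which holds a peripheral stalk to V0, read 21.4, 25.5 and 25.6 FPKM in WT against 19.9, 20.3 and 20.2 FPKM in labelled KO, so the groups did not overlap but WT replicate 1 lay near the labelled KO libraries. Its log2FC was -0.28 (SE 0.071, adjusted p = 0.0506 in edgeR), and the test was passed without WT replicate 1 (adjusted p = 0.00349 in edgeR). Atp6v1h, the regulatory subunit H, read 7.39, 7.80 and 7.44 FPKM in WT against 6.70, 6.61 and 7.07 FPKM in labelled KO (log2FC -0.17, adjusted p = 0.0512 in edgeR). The peripheral stalk genes Atp6v1g1 and Atp6v1e1 were likewise without overlap and without a call. Atp6v1g1 read 139, 140.4 and 137 FPKM in WT against 126, 135 and 126 FPKM in labelled KO (log2FC -0.12, adjusted p = 0.0815 in edgeR). Atp6v1e1 read 43.4, 42.2 and 40.8 FPKM in WT against 39.7, 39.7 and 39.2 FPKM in labelled KO (log2FC -0.11, adjusted p = 0.0647 in edgeR). Both Atp6v1c1 and Atp6v1h passed with DESeq2 (adjusted p = 0.00343 and 0.021) and in edgeR with median-of-ratios factors (adjusted p = 0.0485 and 0.0496). Atp6v1g1 passed without KO replicate 2 (adjusted p = 0.0345 in edgeR). The rotor gene Atp6v1f overlapped between the groups, at 96.7, 99.1 and 98.9 FPKM in WT against 92.1, 97.0 and 91.8 FPKM in labelled KO (log2FC -0.09, adjusted p = 0.173 in edgeR). Atp6v1g2 read 0.755, 1.55 and 1.04 FPKM in WT against 0.662, 0.700 and 1.16 FPKM in labelled KO. At its 146 to 300 counts in WT, the 95% limits of -1.21 and 0.37 left the direction undecided at this depth. The median of the V1 genes was -0.11 without WT replicate 2.

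**Figure D3:**
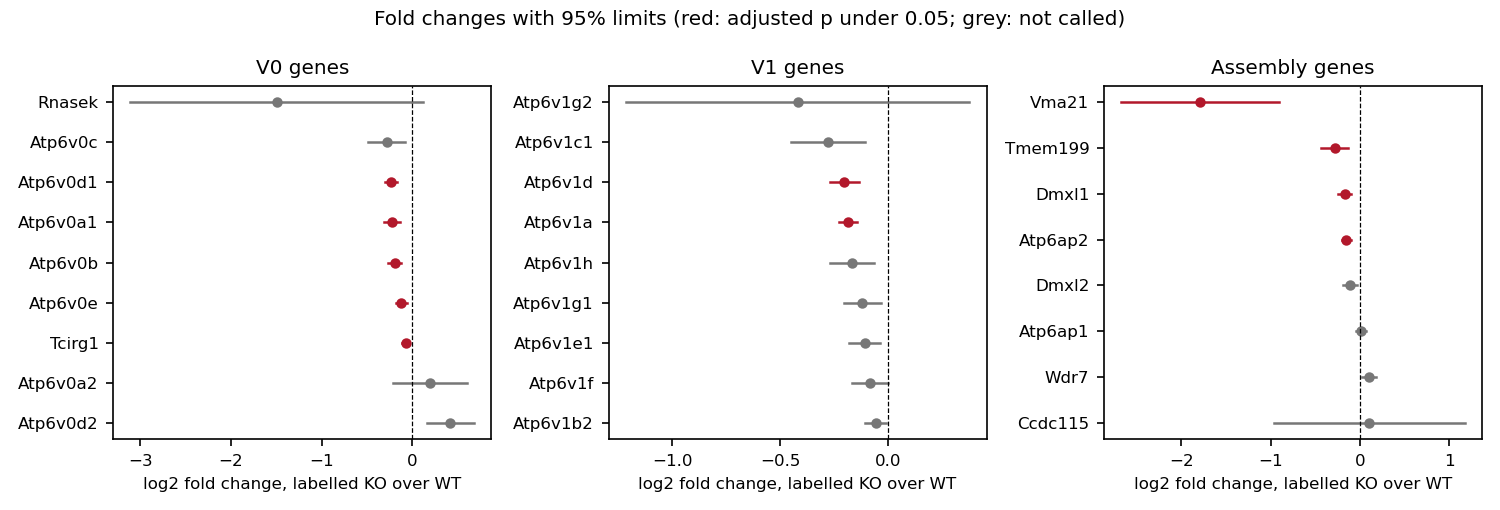
Fitted log2 fold changes (labelled KO relative to WT) with 95% limits for the 26 tested members, in 3 panels by sector with separate axes; red marks an adjusted p under 0.05 and grey the rest. Red points lie left of 0 in all 3 panels, and wide limits belong to Rnasek, Atp6v1g2, Ccdc115 and Vma21.

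Among the assembly genes, 4 of 8 tested fell in the libraries labelled KO and 0 rose, with a median log2FC of -0.13. Vma21, a chaperone of the endoplasmic reticulum that escorts assembled V0 to the Golgi, had the largest fitted change of the 26 tested members. The gene (ENSMUSG00000073131, chromosome X, 71815924 to 71839757, plus strand) read 3.76, 3.99 and 1.47 FPKM in WT against 1.01, 0.794 and 0.891 FPKM in labelled KO, on 447 to 2236 counts. WT replicate 3 thus lay closer to the labelled KO libraries than to the other WT libraries. The log2FC was -1.79 (SE 0.37, adjusted p = 0.0259 in edgeR). Without WT replicate 3 it was -2.12 (adjusted p = 0.00132 in edgeR), and without any other 1 library it was -1.55 to -1.88 and not called (adjusted p of 0.0764 to 0.0915 in edgeR). On the log2(FPKM + pseudocount) scale limma gave Vma21 a log2FC of -1.55 with a pseudocount of 0.1 (adjusted p = 0.0557) and -1.03 with a pseudocount of 1 (adjusted p = 0.0712), neither a call. With replicate number added to the edgeR model, the log2FC of Vma21 was -1.67 and not called (adjusted p = 0.0734 in edgeR). The call held with DESeq2 (adjusted p = 0.000642). It also held in edgeR with median-of-ratios factors (adjusted p = 0.0258) and without a filter on low counts (adjusted p = 0.0372). No other gene of the annotation (GENCODE M21) shares exon bases with Vma21. The table gives 1 value per gene, so the start sites of Vma21 cannot be told apart.

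Tmem199 and Ccdc115 encode homologs of yeast V0 assembly factors of the endoplasmic reticulum. Tmem199 went from 9.06, 9.90 and 9.25 FPKM in WT to 7.76, 8.09 and 7.60 FPKM in labelled KO (log2FC -0.28, SE 0.063, adjusted p = 0.0336 in edgeR). Its groups did not overlap, but the call was lost without any 1 of the 6 libraries (adjusted p of 0.0611 to 0.105 in edgeR). Ccdc115 was not called and had 1 high library in each group, at 16.1, 7.78 and 7.33 FPKM in WT against 6.90, 9.01 and 18.02 FPKM in labelled KO. Its log2FC was 0.11 with 95% limits of -0.96 and 1.18, and turned to -0.40 without KO replicate 3, to -0.06 without WT replicate 2 and to -0.09 without WT replicate 3.

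The accessory subunits Atp6ap1 and Atp6ap2, whose membrane parts lie inside the assembled V0 ring, gave 1 call. Atp6ap2, also known as the prorenin receptor, went from 90.3, 88.9 and 87.7 FPKM in WT to 82.0, 80.6 and 80.5 FPKM in labelled KO (log2FC -0.15, SE 0.023, adjusted p = 0.00804 in edgeR). Atp6ap1 read 91.3, 92.3 and 90.8 FPKM in WT against 92.1, 95.2 and 92.7 FPKM in labelled KO, with overlapping groups and a log2FC of 0.01 (95% limits -0.04 and 0.07, adjusted p = 0.773 in edgeR). The limits of Atp6ap1 leave out a change of the size seen for Atp6ap2, but the difference between the genes was not itself tested.

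The RAVE-like genes, which promote docking of V1 onto V0, gave 1 call and fitted values of both signs. Dmxl1 fell from 6.53, 6.51 and 6.86 FPKM in WT to 6.06, 5.95 and 5.89 FPKM in labelled KO (log2FC -0.17, SE 0.031, adjusted p = 0.0172 in edgeR), a call lost without KO replicate 2 or 3 (adjusted p of 0.0542 to 0.0605 in edgeR). With limma and pseudocounts of 0.1 and 1, Dmxl1 was not called either (adjusted p = 0.0828 and 0.0876). Its homolog Dmxl2 read 11.5, 12.1 and 11.4 FPKM in WT against 10.8, 11.1 and 10.9 FPKM in labelled KO, with a log2FC of -0.11 and no call (adjusted p = 0.0746 in edgeR). Every labelled KO library of Dmxl2 lay below every WT library. Wdr7, the shared partner, read 10.0, 10.3 and 10.2 FPKM in WT against 10.8, 11.0 and 11.3 FPKM in labelled KO. Its groups did not overlap, but the change did not pass (log2FC 0.10, adjusted p = 0.0972 in edgeR).

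Rnasek, which encodes the small V0 subunit f, showed how 1 library can set a value. It read 12.3, 67.4 and 13.6 FPKM in WT against 11.9, 9.26 and 12.3 FPKM in labelled KO, and WT replicate 2 alone held 4571 counts where the other 5 libraries held 631 to 957. The log2FC was -1.49 (SE 0.67, adjusted p = 0.223 in edgeR), and -0.23 without WT replicate 2 (adjusted p = 0.421 in edgeR). Of the exon bases of Rnasek, 67.7% also belong to Gm21988, an overlapping gene on the same strand, which stayed between 5.40 and 7.14 FPKM in the 6 libraries. The lowest WT value of Rnasek (12.32 FPKM) and its highest labelled KO value (12.31 FPKM) were nearly equal. A coefficient of variation above 15% in either group was found in 4 of 25 members with a mean count of at least 400 (Rnasek, Vma21, Ccdc115 and Atp6v0a2), and in 17.3% of the 9597 tested genes at that depth. The median of the larger coefficient was 2.93% in those members and 6.8% in those genes.

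**Figure D4:**
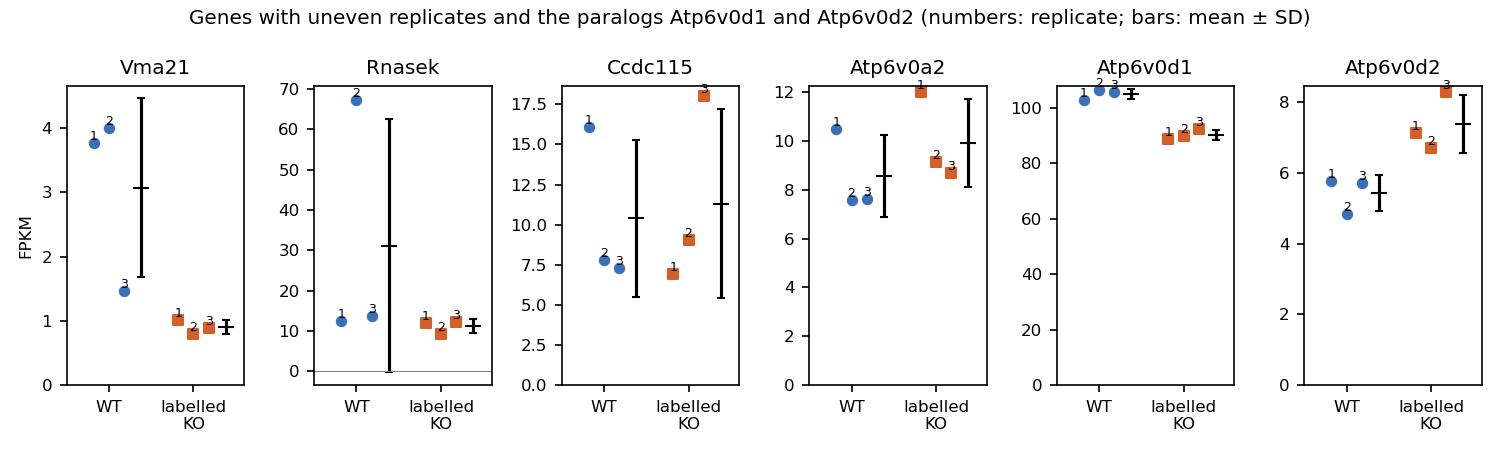
FPKM by library for Vma21, Rnasek, Ccdc115, Atp6v0a2 and the subunit d paralogs Atp6v0d1 and Atp6v0d2, WT as circles and labelled KO as squares with replicate numbers; bars are mean ± SD (n = 3). Rnasek is high in WT replicate 2 only, Vma21 in WT replicates 1 and 2, and Ccdc115 in WT replicate 1 and KO replicate 3, whereas both subunit d genes separate by group in opposite directions.

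Other genes of lysosomal acidification and of nutrient sensing at the lysosome were read from the same fit. There were 3 rises and 7 falls in labelled KO among the 34 tested, with a median log2FC of -0.02, where 7.01% of all tested genes were called higher and 5.67% lower. The list counts that follow stand beside the same shares, and nothing is called particular to a list. In the family of TFEB, TFE3, MITF and TFEC transcription factors, Mitf rose from 10.6 ± 0.438 FPKM in WT to 12.8 ± 0.531 FPKM (SD, n = 3; log2FC 0.25, adjusted p = 0.0193 in edgeR), and the other 3 were not called. The Mitf call was lost in 4 of the 6 fits with 1 library left out, those without WT replicates 1 and 2 and KO replicates 1 and 3 (adjusted p up to 0.0743 in edgeR). Tfe3 was at 19.4 ± 0.586 and 20.01 ± 0.824 FPKM, and Tfeb at 4.75 ± 0.852 and 5.42 ± 1.65 FPKM.

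The Ragulator, Rag GTPase and folliculin list, whose proteins act in amino acid sensing at the lysosome, had 4 falls and 0 rises among 13 tested genes. The folliculin partners Fnip2 and Fnip1 fell from 49.3 ± 0.242 FPKM in WT to 28.3 ± 0.848 FPKM and from 16.8 ± 0.332 FPKM in WT to 13.7 ± 0.274 FPKM (SD, n = 3; log2FC -0.82 and -0.31, adjusted p = 2.5e-05 and 0.0018 in edgeR). The Rag GTPase genes Rragc and Rragd fell by 0.22 and 0.41 on the log2 scale, the call of Rragd being lost when WT replicate 1, WT replicate 2 or KO replicate 3 was left out (adjusted p up to 0.0543 in edgeR). None of the 5 Ragulator genes Lamtor1 to Lamtor5 was called.

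Among 10 lysosomal channels and exchangers, 2 rose and 3 fell. Clcn7, the chloride and proton exchanger of the lysosome, and its partner Ostm1 rose from 89.3 ± 2.01 FPKM in WT to 102 ± 1.18 FPKM and from 11.7 ± 0.131 FPKM in WT to 13.1 ± 0.239 FPKM (SD, n = 3; log2FC 0.18 and 0.15, adjusted p = 0.00397 and 0.0245 in edgeR). The cation channel genes Mcoln3 and Tpcn1 fell from 3.83 ± 0.0666 FPKM in WT to 1.94 ± 0.130 FPKM and from 13.8 ± 0.617 FPKM in WT to 10.1 ± 0.238 FPKM (log2FC -0.9995 and -0.47, adjusted p = 0.000629 and 0.00123 in edgeR), and Tpcn2 fell by 0.39. The call of Ostm1 was lost without any 1 of the 6 libraries (adjusted p up to 0.0866 in edgeR), and that of Tpcn2 without any but WT replicate 3 (up to 0.136). None of the 7 tested TLDc proteins and other pump interactors was called.

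**Figure D5:**
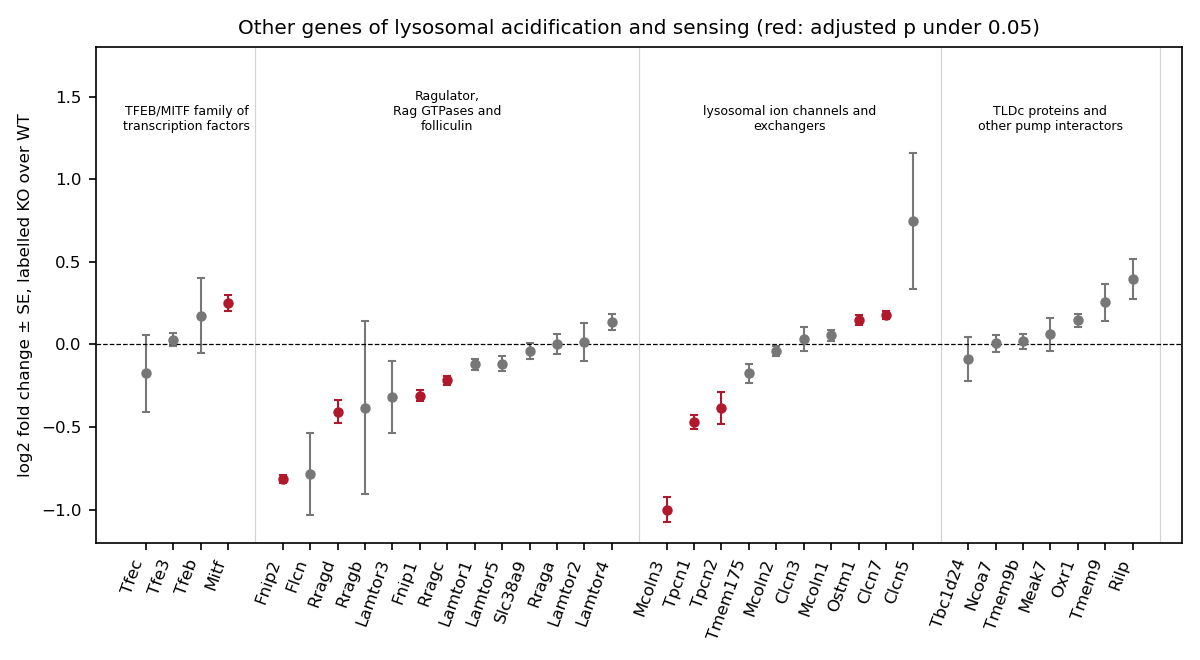
Fitted log2 fold changes ± SE (labelled KO relative to WT) for the 34 tested genes of 4 related lists; red marks an adjusted p under 0.05. Fnip2 and Mcoln3 lie lowest among the red points, and Mitf, Ostm1 and Clcn7 are the red points above 0.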

How the data were processed

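Per the labels' protocols, Trizol RNA from macrophages was enriched for poly(A) RNA, which was broken into fragments and copied to cDNA (6 libraries). The build mm10 and the tools StringTie 1.3.4d, HISAT2 2.0.4 and cutadapt 1.9 are named in the submitters' processing notes. Annotation, settings and strandedness were not given in the sources used here. Per the file headers, the authors deposited FPKM and a count per gene and library. The count is treated as an estimated count, since 36.9% to 40.4% of deposited counts from 1 to 20 are multiples of 4. An FPKM of 0.0001 stands where the count is 0. For the 25 members with at least 400 counts in each library, the length implied by FPKM and count differed by at most 0.81% between libraries and was proportional to all exon bases of the gene in GENCODE M21 (ratio 0.884 to 0.887), so isoform use is not seen. Coordinates are those deposited; 26 of 27 detected members have them in GENCODE M21.

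Estimated counts, already whole, entered edgeR 4.0.16 under R 4.3.3 (TMM factors, filterByExpr with minimum count 10 and total 15, glmQLFit, glmQLFTest), labelled KO against WT, n = 3 each. Adjusted p-values are Benjamini-Hochberg over 16256 genes, called under 0.05 with no minimum fold. Each SE is the log2FC over the root of F, and 95% limits use t quantiles. On simulated counts for this comparison (15752 genes), 58.2% of changes of 1 on the log2 scale and 0% of changes of 0.3 were recovered. Those changes were placed in genes drawn at random from all levels. Recovery was not worked out for abundant genes with tight replicates, and among the members changes smaller than 0.3 were called. Promoters are RefSeq's. Members, lists and the rule for naming genes were chosen with earlier results of these data known. All members are accounted for; of other pathway genes, called ones are named, up to 4 a list, with Tpcn2, Tfe3 and Tfeb added after their values were seen. Alternatives were DESeq2 1.42.0, other factors, filters and limma 3.58.1 on log2(FPKM + pseudocount), a replicate block and each library left out.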

Additional observations from a re-analysis of the deposited data

How the results depend on the processing

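Estimated counts and 3 libraries a group limit what can be called: changes near 0.1 on the log2 scale pass only where replicates are very tight. The median of all tested genes lay between -0.00842 and 0.0211 on the log2 scale under the settings tried. With DESeq2, 1 V0 gene was called higher and 4 V1 genes lower, and Atp6v0c took the place of Tcirg1 among the 5 V0 genes called lower; median-of-ratios factors also gave 4 V1 genes lower. limma on log2(FPKM + 0.1) and on log2(FPKM + 1) each called 2 assembly genes lower, and limma on genes with a mean FPKM of at least 1 called 1 V0 gene higher. Same-numbered libraries did not deviate together (correlations from -0.03 to 0.05, beside -0.08 to 0.10 for differently numbered ones). With 3 libraries a group this cannot settle whether the numbers pair the samples, and the labels do not say. With a replicate block, 552 genes were called higher and 460 lower over the table, with 2 V0 genes and 1 assembly gene lower. Fits with 1 library left out hold fewer samples: they called 683 to 744 genes higher and 534 to 614 lower over the table, 2 to 3 V0 genes and 1 to 3 assembly genes lower, and 1 to 3 other pathway genes higher. Directions turned in some of these fits, for Ccdc115 (-0.40 to 0.57), Atp6ap1 (-0.00254 to 0.0228) and Mettl3 (-0.0661 to 0.112), none of which was called. Causes beyond fewer samples were not tested.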
